A study of Mus musculus with 8 samples.

Results

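The JAK kinases and the STAT transcription factors were examined through 9 genes: Jak1, Jak2, Tyk2, Stat2, Stat3, Stat4, Stat5a, Stat5b and Stat6. They were taken by gene symbol from the array annotation, with every probe of each gene kept. This gave 13 probes of the 26818 probes tested, and 9 genes of the 19284 genes tested. Stat3 and Stat5b had 2 probes each, Stat6 had 3, and the other 6 genes had 1 each.

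The cells were macrophages grown from bone marrow of 4 male C57BL/6J mice. Cells of each mouse received either a control (Ct) siRNA or siRNA whose target is the terminal loop of RNY, the Y RNAs, which are small non-coding RNAs that bind the Ro60 protein. The sample titles write the latter siRNA in the plural and the treatment label in the singular, and how many were used is not stated. Each transfection gave 1 one-colour Agilent array, so that there were 4 arrays per group and 8 in all. Both groups were transfected, and no untransfected cells were analysed here. For the siRNAs, sequence, dose and time after transfection were not given in the sources used here, nor were the age of the mice and the culture medium. All p-values measure the spread between arrays of these 4 mice.

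JAK kinases are bound to the inner tails of cytokine receptors. When a cytokine joins its receptor chains, the kinases phosphorylate each other and the receptor, a STAT protein docks there, is phosphorylated in turn, pairs with another STAT and moves into the nucleus to bind DNA. In macrophages this route carries the signals of interferons, IL-4, IL-6, IL-10 and some colony-stimulating factors. SOCS proteins, themselves induced by STATs, switch the route off again. The arrays measured RNA, whereas STAT activity is set largely by phosphorylation, which was not measured.

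Stretches of the Stat4 and Stat2 promoters are shown because these 2 genes had a sequence of the interferon-responsive type close to their start. The RefSeq promoter windows (GRCm38.p6) ran from 250 bases before to 50 bases after each start, and the 9 genes had 12 such windows. The core of the interferon-stimulated response element, which STAT2 complexes bind, was searched on both strands as GAAA, any 2 bases and again GAAA. It is in capitals here, and in the Stat2 stretch it lies on the opposite strand.
Stat4, chr1:52008123-52008172, plus strand: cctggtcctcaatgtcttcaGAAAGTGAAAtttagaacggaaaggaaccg
Stat2, chr10:128270256-128270305, plus strand: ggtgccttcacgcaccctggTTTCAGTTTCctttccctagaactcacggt
The match began at position -97 from the start in Stat4, in 1 of its windows, and at position -222 in Stat2. Of 32851 mouse promoter windows of this length, 1131 (3.44%) held the motif. The motif TTCNNNGAA, the palindrome that STAT dimers bind, was in none of the 12 windows and in 2726 (8.30%) of all windows. A match is a run of letters only, and binding was not measured.

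The next 2 sequences are array probes of Stat6, shown because each lies upstream of the brightest Stat6 probe and so reads another stretch of the transcript. Their positions are those of the array annotation, on mm9, and their exons were not assigned.
Stat6 A_52_P132761, chr10:127083983-127084042, plus strand: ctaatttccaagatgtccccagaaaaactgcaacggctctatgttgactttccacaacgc
Stat6 A_65_P00601, chr10:127095694-127095753, plus strand: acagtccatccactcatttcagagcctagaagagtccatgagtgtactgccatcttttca
They lay 13706 and 1995 genomic bases upstream of the brightest Stat6 probe. Probes of different member genes shared at most 12 bases in a row, between Stat4 and Stat5a. In the RefSeq gene order Stat5b, Stat5a and Stat3 follow one another on chromosome 11, whereas the other 6 genes do not adjoin each other.

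All 8 arrays had similar quality. Between 48.7% and 50.7% of spots were well above background, no spot was saturated, and the RNA integrity number was 10 for 7 arrays and 8 for the control array of mouse 4. The first principal component, with 41.1% of the variance, separated the pair of arrays from mouse 1 from the remaining 6. Macrophage markers were strong: 10 of 11 were well above background on every array, Csf1r, Cd68, Lyz2 and Adgre1 among them, while Cd163 was not. The summed macrophage marker level was 10.45 to 10.68 in control arrays and 10.43 to 10.68 in Y RNA siRNA arrays. Levels here and below are the log2 processed signal after subtraction of each array's 75th percentile, and differences are Y RNA siRNA minus control siRNA on that log2 scale. The slide column could not be told apart from the siRNA group, since the control arrays lay in columns 2 and 4 and the Y RNA siRNA arrays in columns 1 and 3.

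RNA of all 9 genes was measured well above background on all 8 arrays, and none of the 13 probes passed the siRNA test. With limma over all 26818 probes, 0 member probes had a Benjamini-Hochberg adjusted p under 0.05, where 0.0% of all probes did. Without adjustment, 2 of the 13 member probes and 892 of all probes had p under 0.05, and no method with a mouse term called a member either. With mouse as a random block, 0 member probes and 0.0112% of all probes (3 probes) passed. With mouse as a fixed block, 0 of all probes passed, and 3 of the 13 member probes had an unadjusted p under 0.05, where 8.69% of all probes did. Those 3 were the Stat4 probe, the upstream Stat3 probe and the Stat6 probe A_65_P00601. Of the kinases Jak2 had the smallest unadjusted p, and of the STATs Stat4, and these are described first.

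**Figure D1:**
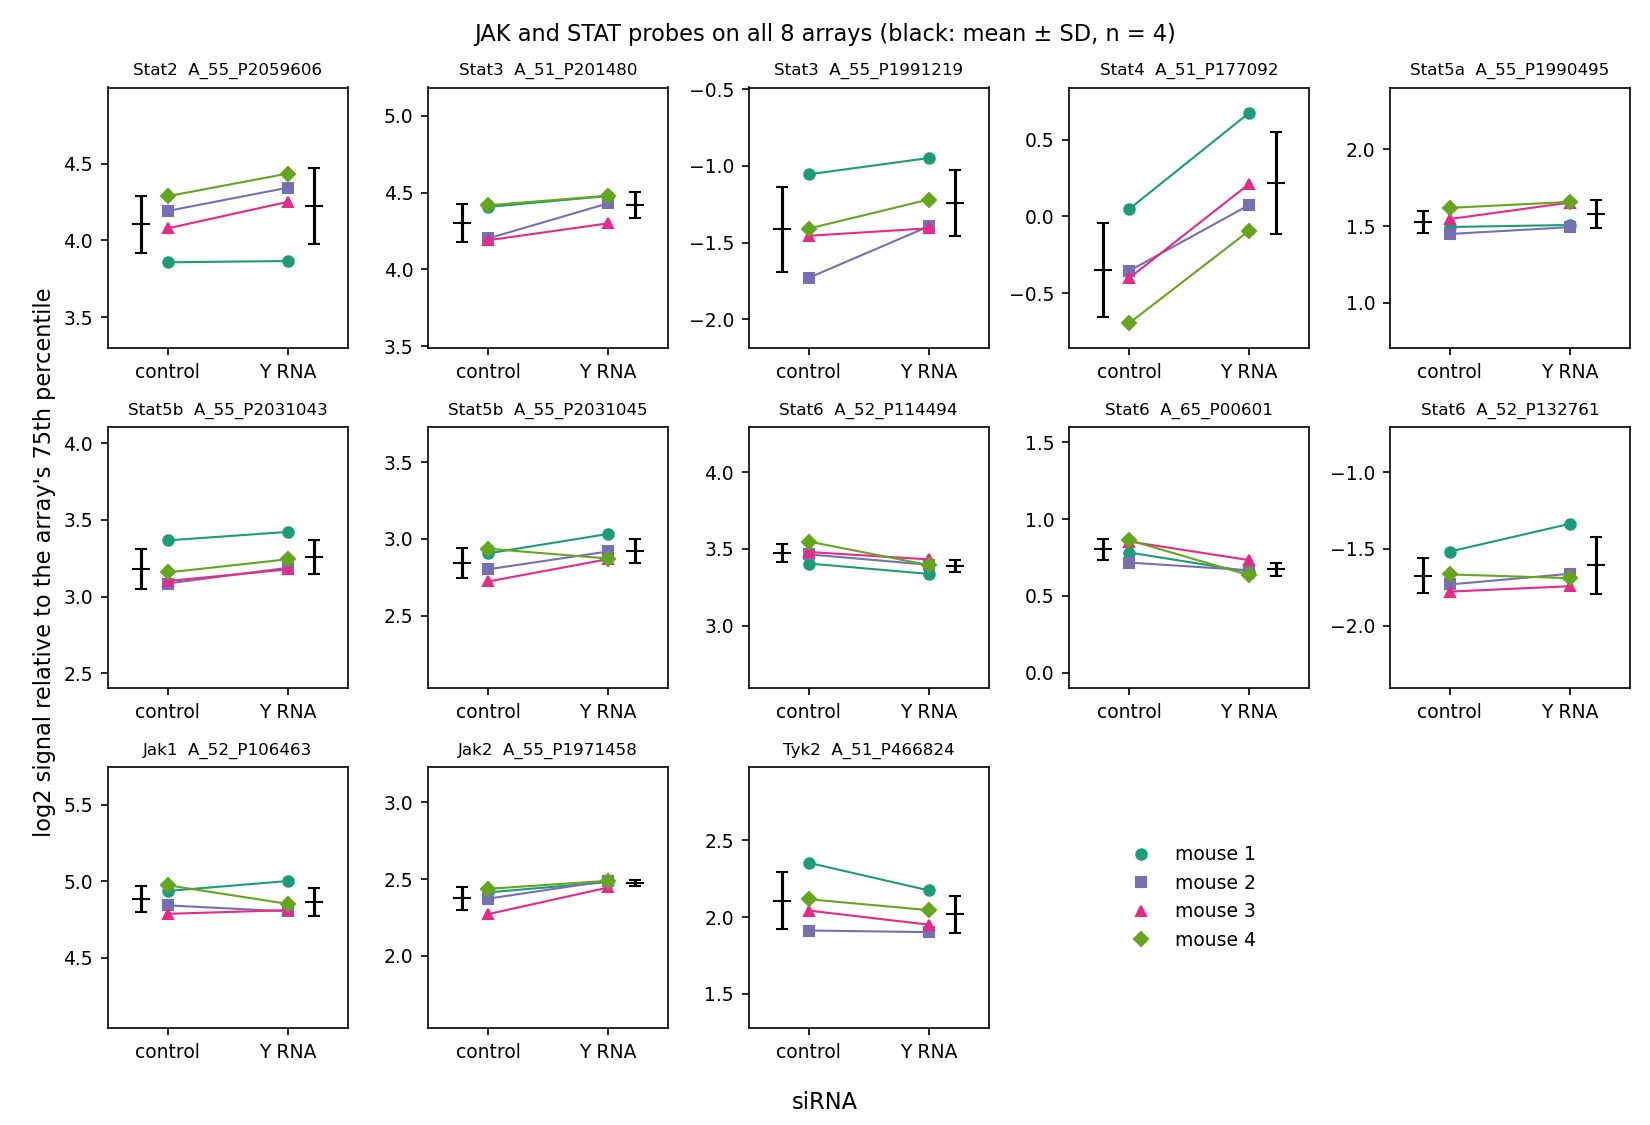
Level of the 13 JAK and STAT probes on each array, 1 panel per probe. The vertical axis is log2 signal relative to the array's 75th percentile, coloured points are mice, lines join the control and Y RNA siRNA arrays of a mouse, and black marks are the mean ± SD of 4 arrays. The Stat4 lines all slope upward while standing apart, with group means of -0.35 and 0.22, and most other lines are nearly flat.

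Of the kinases, Jak2 was the member with no overlap between groups. Jak2 serves receptors of some colony-stimulating factors, erythropoietin and interferon-γ. Its probe A_55_P1971458 lies at chr19:29387487-29387546 on mm9, on the plus strand. In control siRNA cells its level was 2.41, 2.37, 2.27 and 2.44 in mice 1 to 4. In Y RNA siRNA cells it was 2.48, 2.49, 2.44 and 2.49. Every Y RNA siRNA array was above the highest control array, although the closest pair both round to 2.44, and the value was higher in 4 of 4 mice. The means were 2.37 ± 0.07 and 2.48 ± 0.02 (SD, n = 4 each), a difference of 0.10 (SE 0.06), or 1.07-fold with a 95% interval of 0.983 to 1.17. The limma adjusted p was 1.00, and 0.592 with mouse as a fixed block. Groups that did not overlap, with the Y RNA siRNA group higher, were found for 1 of 13 member probes and for 1.26% of all probes.

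Jak1, the kinase shared by interferon, IL-6-type and γ-chain cytokine receptors, had almost the same level under both siRNAs. Its probe A_52_P106463 (chr4:100825094-100825153, minus strand) had processed signals of 16132 to 18541. The level was 4.94, 4.84, 4.79 and 4.97 in control cells of mice 1 to 4, and 5.00, 4.80, 4.81 and 4.85 in Y RNA siRNA cells. The groups overlapped throughout, and mice 1 and 3 had the higher value with the Y RNA siRNA while mice 2 and 4 had the lower one. The difference was -0.02 (SE 0.07, adjusted p = 1.00), and its 95% interval of 0.883 to 1.10-fold bounds any change of Jak1 RNA at this precision.

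Tyk2, the partner of Jak1 at interferon-α/β and IL-10 receptors, was lower with the Y RNA siRNA in 4 of 4 mice, by little. Its probe A_51_P466824 lies at chr9:20909321-20909380 on the minus strand. Control levels were 2.35, 1.91, 2.04 and 2.12 in mice 1 to 4, against 2.17, 1.90, 1.95 and 2.05 with the Y RNA siRNA. The groups overlapped, and mouse 1 had the highest value under either siRNA. The difference of -0.09 (SE 0.11, adjusted p = 1.00) was smaller than the SD of 0.19 between the control arrays. That SD includes differences between mice, and a fixed block for mouse gave an SE of 0.05 and an adjusted p of 0.657. The Tyk2 difference was -0.0059 without the control array of mouse 1, -0.15 without that of mouse 2 and -0.04 with the values deposited by the authors.

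Stat4 had the largest difference of the 13 member probes. Stat4 carries signals of IL-12 and interferon-α/β and is best known from T and natural killer cells. Its probe A_51_P177092 lies at chr1:52163802-52163861 on the plus strand, and its processed signal was 364 to 838. Control levels were 0.05, -0.36, -0.40 and -0.70 in mice 1 to 4. Y RNA siRNA levels were 0.67, 0.07, 0.21 and -0.09 in the same order. Within every mouse the Y RNA siRNA array was the higher one, but the groups overlapped, because the control array of mouse 1 was above the Y RNA siRNA array of mouse 4.

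The Stat4 difference within each mouse was 0.63, 0.43, 0.61 and 0.60. Its mean was 0.57 (SE 0.20), or 1.48-fold with a 95% interval of 1.08 to 2.04. This did not pass the test over all probes (unadjusted p = 0.0213, limma adjusted p = 1.00), and the probe ranked 395 of 26818. With mouse as a fixed block the SE became 0.05 and the rank 10 of 26818, and the adjusted p was 0.325. As a random block, mouse gave an adjusted p of 0.203. Over all processing alternatives the Stat4 difference was 0.49 to 0.60, and with any 1 array left out 0.42 to 0.70. Without mouse 4, whose control RNA had the lower integrity number, it was 0.56.

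Because Stat4 is abundant in lymphocytes and some dendritic cells, their markers were read on the same arrays. Of 9 lymphocyte markers, 4 were tested (Cd79a, Cd79b, Cd3e and Lck). Cd3d, Ms4a1 and Ncr1 were not well above background on any of the 8 arrays. Among the 4 tested, Cd79b differed by 0.58 and was higher in 3 of 4 mice. Cd3e differed by -0.15 and was lower in 4 of 4. Cd79a differed by -0.21 and Lck by 0.13, each higher in 2 of 4 mice. The summed lymphocyte level was 0.76 to 1.70 in control arrays and 1.46 to 1.67 in Y RNA siRNA arrays, and its difference in mice 1 to 4 was 0.15, 0.15, -0.03 and 0.70. Of 8 dendritic cell markers, Cd209a, Clec9a, Flt3 and Xcr1 were not well above background on any array. The summed level was 6.48 to 6.59 in control arrays and 6.37 to 6.59 in Y RNA siRNA arrays, and Siglech alone made up nearly all of it, with means of 6.54 and 6.47, while Ccr7 was at -3.95 and -3.80. The part of such cells in the Stat4 level was not tested. In bulk RNA, more cells of a type and more RNA per cell cannot be told apart.

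Stat2, the STAT that joins IRF9 in the interferon-induced complex, was higher in 4 of 4 mice without passing the test. Its probe A_55_P2059606 lies at chr10:127729834-127729893 on the plus strand. Control levels were 3.86, 4.19, 4.08 and 4.29 in mice 1 to 4, and Y RNA siRNA levels were 3.87, 4.34, 4.25 and 4.44. The 2 groups overlapped, mouse 1 being lowest under both siRNAs. In mouse 1 the difference was 0.0085, and in the other 3 mice it was 0.15 to 0.17. The mean difference was 0.12 (SE 0.14), or 1.09-fold with a 95% interval of 0.867 to 1.36 (adjusted p = 1.00). A fixed block for mouse gave an SE of 0.05 and an adjusted p of 0.578. With 1 array left out the difference ran from 0.04, without the control array of mouse 1, to 0.24, without the Y RNA siRNA array of mouse 1.

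Both Stat3 probes pointed the same way, higher with the Y RNA siRNA in 4 of 4 mice, and neither passed the test. Stat3 is the STAT of IL-6 and IL-10, the cytokine that restrains macrophage activation. Its brightest probe, A_51_P201480 (chr11:100749598-100749657, minus strand), was printed as 10 spots per array, whose SD was 0.03 to 0.05 within an array. It gave 4.41, 4.20, 4.19 and 4.42 in control cells of mice 1 to 4, and 4.48, 4.43, 4.30 and 4.48 in Y RNA siRNA cells. The groups overlapped, with control cells of mice 1 and 4 among the higher values. The difference was 0.12 (SE 0.08, adjusted p = 1.00, and 0.581 with mouse as a fixed block), or 1.09-fold with a 95% interval of 0.957 to 1.23.

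The upstream Stat3 probe, A_55_P1991219, was dim, with processed signals of 194 to 272. Its control levels were -1.05, -1.73, -1.46 and -1.41 and its Y RNA siRNA levels -0.95, -1.39, -1.41 and -1.22. Its difference was 0.17 (SE 0.16, adjusted p = 1.00), larger in mouse 2, at 0.34, than in mouse 3, at 0.05. With 1 array left out it ran from 0.06, without the control array of mouse 2, to 0.29, without that of mouse 1. The groups again overlapped, and mouse 1 was highest under each siRNA.

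The neighbouring genes Stat5a and Stat5b encode closely related factors of colony-stimulating factor, erythropoietin and IL-3 signals. The Stat5a probe A_55_P1990495 (chr11:100746373-100746432, plus strand) gave 1.49, 1.45, 1.55 and 1.62 in control cells and 1.51, 1.49, 1.65 and 1.66 in Y RNA siRNA cells of mice 1 to 4. The difference of 0.05 (SE 0.07, adjusted p = 1.00) was below the SD of 0.07 and 0.09 between arrays of a group, although the value was higher in 4 of 4 mice. Those SDs include differences between mice, and a fixed block for mouse gave an SE of 0.04 and an adjusted p of 0.752. Of the Stat5b probes, A_55_P2031043 (chr11:100642045-100642104, minus strand) gave 3.37, 3.08, 3.10 and 3.16 in control cells and 3.42, 3.19, 3.18 and 3.24 in Y RNA siRNA cells. It too was higher in 4 of 4 mice, by 0.08 on average (SE 0.09, adjusted p = 1.00). The other Stat5b probe, A_55_P2031045, lies 142 bases upstream at chr11:100642187-100642246. It gave 2.91, 2.80, 2.72 and 2.94 in control cells and 3.03, 2.92, 2.87 and 2.87 in Y RNA siRNA cells. Its mean difference was also 0.08 (SE 0.07, adjusted p = 1.00), but mouse 4 went the other way, at -0.06.

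Stat6, the factor through which IL-4 and IL-13 direct alternative macrophage activation, had lower values on 2 of its 3 probes. The brightest, A_52_P114494 (chr10:127097689-127097748, plus strand), gave 3.40, 3.46, 3.48 and 3.55 in control cells of mice 1 to 4 and 3.34, 3.40, 3.43 and 3.39 with the Y RNA siRNA. It was lower in 4 of 4 mice, by -0.08 (SE 0.05, adjusted p = 1.00), with overlap between the groups. Probe A_65_P00601, shown above, gave 0.78, 0.72, 0.85 and 0.86 in control cells and 0.66, 0.67, 0.73 and 0.63 in Y RNA siRNA cells. Here the overlap was slight, since 1 Y RNA siRNA array, that of mouse 3, reached the lowest control array. The difference was -0.13 (SE 0.06), or 0.913-fold, with an unadjusted p of 0.0478 and a limma adjusted p of 1.00, or 0.548 with mouse as a fixed block.

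The third Stat6 probe did not follow the other two. A_52_P132761, the dimmest, had processed signals of 180 to 208. It gave -1.52, -1.73, -1.78 and -1.67 in control cells and -1.34, -1.66, -1.74 and -1.69 in Y RNA siRNA cells. It was higher in 3 of 4 mice, with a mean difference of 0.07 (SE 0.10, adjusted p = 1.00). Without the Y RNA siRNA array of mouse 1 its mean difference was -0.03, and without both arrays of mouse 1 it was 0.03. With the values deposited by the authors it was 0.0031.

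**Figure D2:**
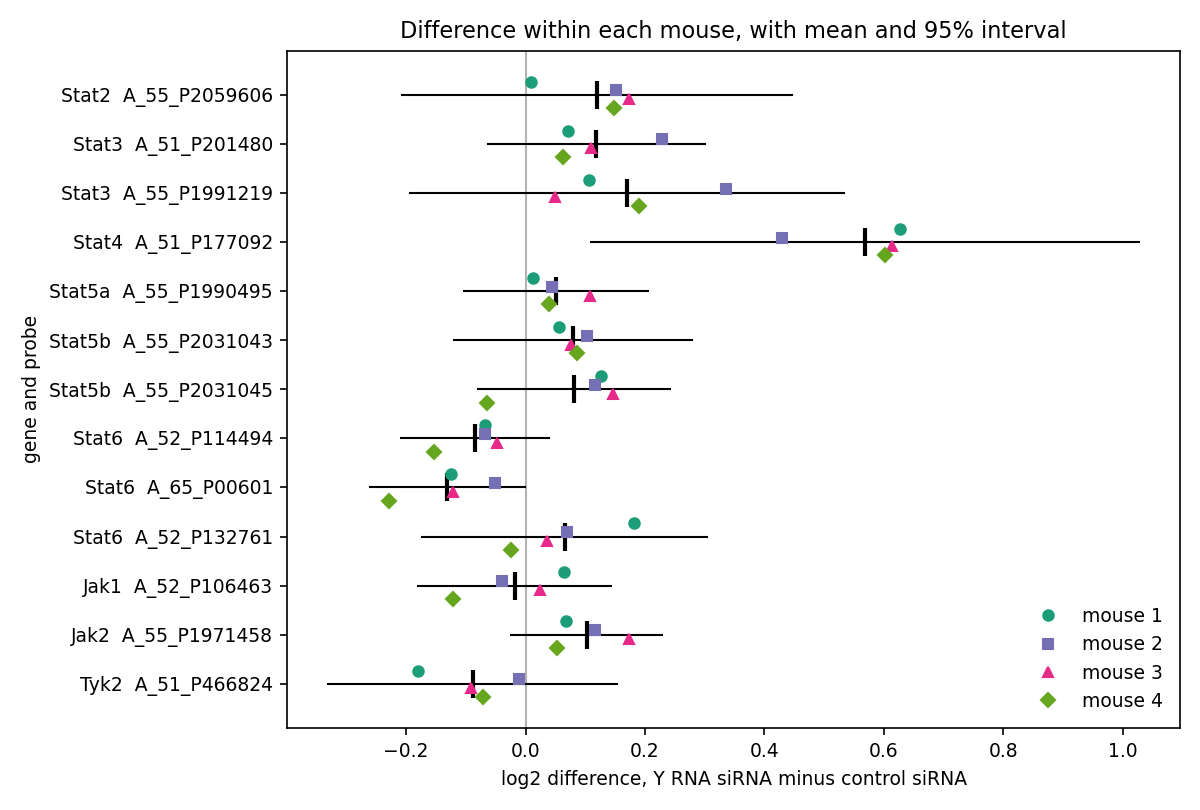
Difference between Y RNA siRNA and control siRNA for each of the 13 probes, in log2 units on the horizontal axis. Coloured points are the 4 mice, and the black mark with its line is the limma mean with its 95% interval. Stat4 lies furthest from 0, with all 4 mice between 0.43 and 0.63, and the intervals of the other probes except Stat6 A_65_P00601 span 0.

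Among all 13 probes, 9 had a higher and 4 a lower mean with the Y RNA siRNA. The median difference was 0.08, where the median of all probes was 0.0036. It was 0.04 without the Y RNA siRNA array of mouse 1, 0.05 without the control array of mouse 2, 0.05 with the values deposited by the authors and 0.11 with median centring. All 4 mice had the higher value for 7 member probes, where 9.78% of all probes did so. All 4 mice had the lower value for 3 member probes, against 9.02% of all probes. With signals centred on the array median instead, these counts became 7 and 1, where 15.1% and 5.03% of all probes did so. With normexp background correction they were 5 and 2, against 8.28% and 9.45% of all probes. With quantile normalization they were 5 and 3, against 8.77% and 10.5%, while the values deposited by the authors gave 4 and 2, against 8.61% and 10.1%. Counts of probes are not counts of genes, since Stat3, Stat5b and Stat6 enter more than once. By 1 probe per gene, 6 of the 9 genes were higher and 2 lower in 4 of 4 mice, where 2009 and 1706 of all 19246 genes with a value on every array were. These shares of all genes apply to the counts in 4 of 4 mice of the gene lists too. For 12 of the 13 probes the 95% interval lay within a 1.5-fold change in either direction, and the exception was Stat4. Intervals within 1.5-fold were found for 83.8% of all probes.

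Member levels were also compared between mice. A limma F-test of the 4 mice, with siRNA as a term, called 1 member probe at an adjusted p under 0.05, where 3.0% of all probes (804) passed. That probe was Stat4 (adjusted p = 0.0402). Its mean over both siRNAs was 0.36 in mouse 1, -0.14 in mouse 2, -0.10 in mouse 3 and -0.39 in mouse 4, a range of 0.76. Mouse 1 was highest and mouse 4 lowest under both siRNAs. The call was lost without mouse 1 (adjusted p = 0.385), mouse 3 (0.110) or mouse 4 (0.100), and without the filter on dim probes (0.137). Leaving out any mouse leaves fewer samples. The 2 arrays of each mouse lay side by side on the slide, so mouse and slide position cannot be told apart.

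Stat2, the upstream Stat3 probe, Tyk2 and the Stat5b probe A_55_P2031043 had the next smallest p between mice and did not pass. Stat2 averaged 3.86 in mouse 1 and 4.27, 4.16 and 4.36 in mice 2 to 4 (adjusted p = 0.0663). The upstream Stat3 probe averaged -1.56, -1.43 and -1.31 in mice 2 to 4 and was highest in mouse 1, with a range of 0.56 (adjusted p = 0.0852). Tyk2 averaged 2.26 in mouse 1 and 1.91, 2.00 and 2.08 in the others (adjusted p = 0.109). The Stat5b probe averaged 3.39 in mouse 1 and 3.14, 3.14 and 3.20 in the others (adjusted p = 0.112). Mouse 1 stood lowest for Stat2 and highest for the Stat4, upstream Stat3, Tyk2 and Stat5b probes. Mouse 1 was highest for 7 of 13 member probes, where 37.4% of all probes were highest there, and lowest for 2, where 31.9% were. The 75th percentile of log2 signal was also lowest on both arrays of mouse 1, with a range over arrays of 9.04 to 9.34, and its part in these differences was not tested.

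**Figure D3:**
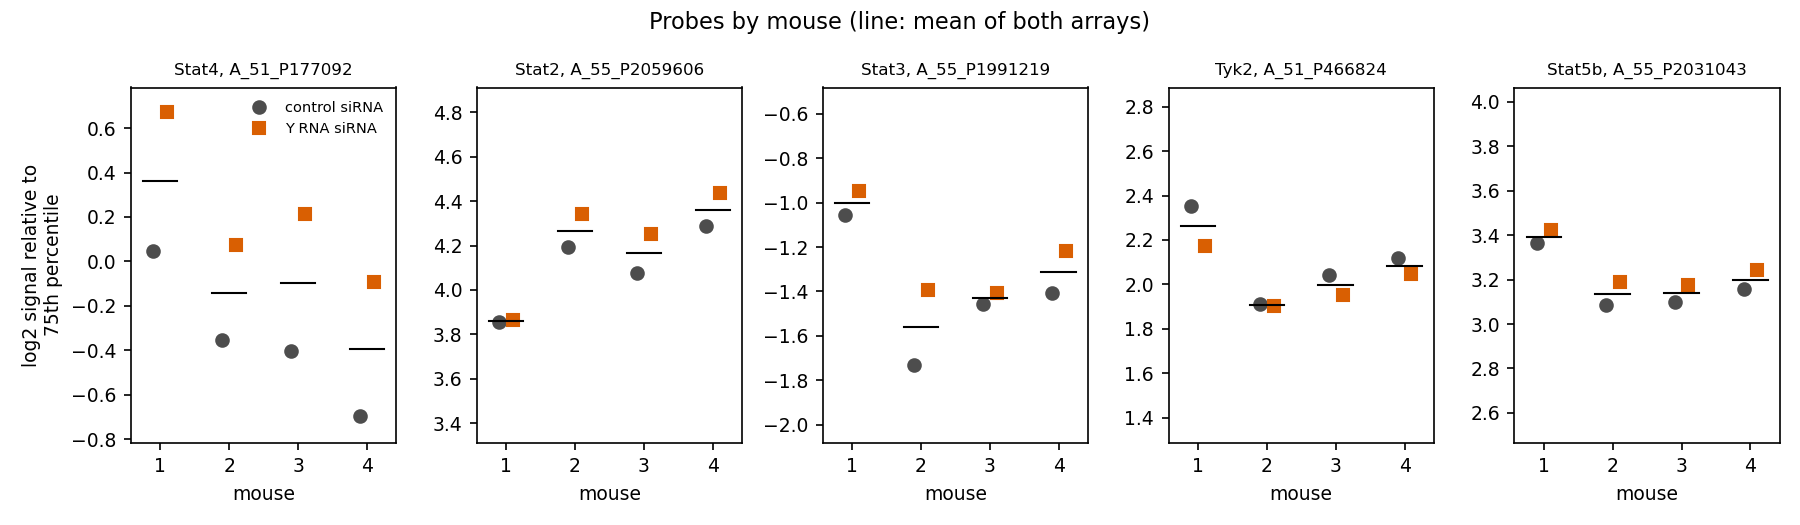
Levels of the probes of Stat4, Stat2, Stat3 (A_55_P1991219), Tyk2 and Stat5b (A_55_P2031043) in each mouse, in log2 signal relative to the array's 75th percentile. Grey circles are control siRNA arrays, orange squares Y RNA siRNA arrays, and a line marks the mean of both. Mouse 1 is highest for Stat4, Stat3, Tyk2 and Stat5b and lowest for Stat2, where both of its arrays lie near 3.86.

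Probes of the same gene were also set against each other on each array, as a difference in which a common scaling factor cancels. This requires that both signals scale alike with the array, which was not tested. Signals of different probes are not comparable as amounts, so only how the gap varied between arrays is read, and that was not tested. For Stat3, the brightest probe exceeded the upstream probe by 5.46, 5.93, 5.65 and 5.83 log2 units in control cells of mice 1 to 4, and by 5.43, 5.82, 5.71 and 5.70 in Y RNA siRNA cells. For Stat6, the brightest probe exceeded A_52_P132761 by 4.92, 5.20, 5.26 and 5.21 in control cells and by 4.67, 5.06, 5.18 and 5.09 in Y RNA siRNA cells. Both gaps were smallest in mouse 1, under each siRNA. Processed signals of the dim probe A_52_P132761 were 180 to 208 over all arrays. For the brightest Stat6 probe they were 5579 and 5307 in control and Y RNA siRNA cells of mouse 1. On all other arrays they were 6124 to 7101. The part of array brightness in either gap was not tested. The Stat6 gap was smaller with the Y RNA siRNA in every mouse, and the Stat3 gap in 3 of 4. The gap to the nearer Stat6 probe A_65_P00601 was 2.62 to 2.76 on all arrays. The gap between the Stat5b probes was 0.22 to 0.46. The control array of mouse 4, with the lower integrity number, lay within the range of the other arrays for the Stat3 and Stat6 gaps and had the smallest Stat5b gap, at 0.22 against 0.27 to 0.46.

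**Figure D4:**
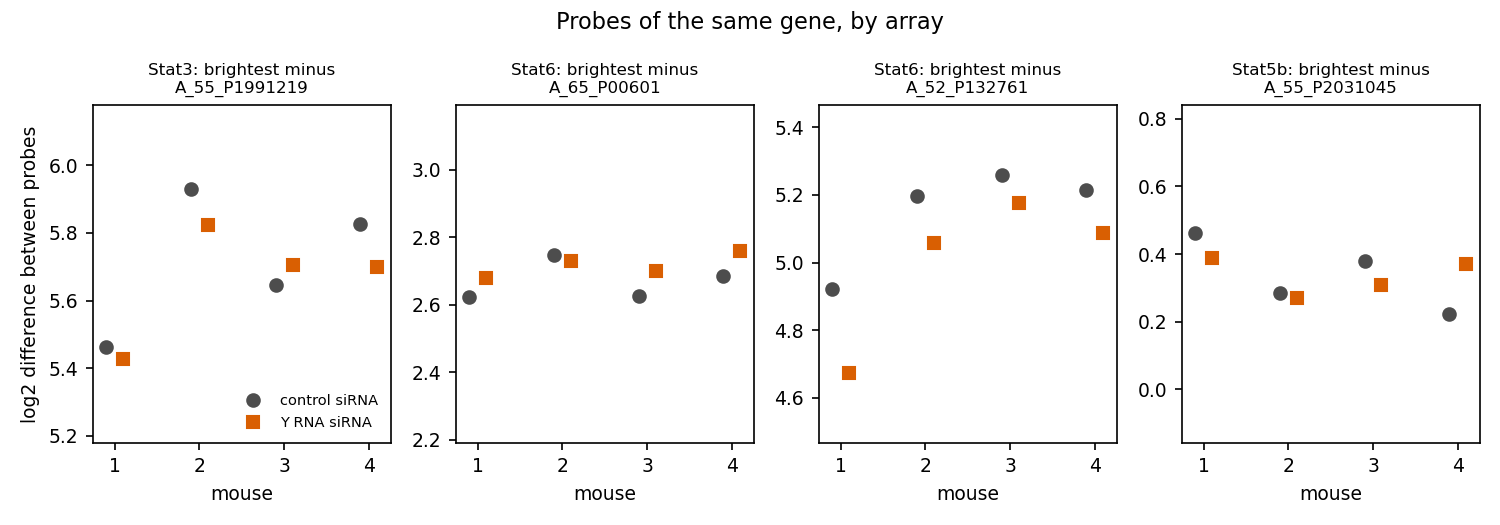
Difference between the brightest probe and each other probe of Stat3, Stat6 and Stat5b, in log2 units, by mouse. Grey circles are control siRNA arrays and orange squares Y RNA siRNA arrays. The Stat3 gap runs from 5.43 to 5.93 and the Stat6 gap to A_52_P132761 from 4.67 to 5.26, with mouse 1 lowest in both.

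The cytokines that feed the pathway were mostly too dim to test. Of 18 ligand genes, 7 were tested, 5 with a higher and 2 with a lower mean, and 0 passed in the limma fit. Their median difference was 0.05, where the median of all genes was 0.0045, and 0 were higher and 1 lower in 4 of 4 mice. By mouse the median was 0.11, 0.11, 0.0073 and -0.04, and it was 0.0039 without mouse 2 and 0.10 without mouse 4. The gene lower in 4 of 4 mice was Il10, which acts on macrophages through Jak1, Tyk2 and Stat3. Its difference was -0.16 (SE 0.10), from a level of -1.77 ± 0.14 to -1.94 ± 0.15 (SD, n = 4 each). Osm, an IL-6-type cytokine, differed by 0.11 (SE 0.08) and was higher in 3 of 4 mice.

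Receptors divided in both directions. Of 27 listed receptor genes 22 were tested, 9 with a higher and 13 with a lower mean, with a median of -0.06 and 0 passing. In 4 of 4 mice, 4 were higher and 6 lower. The 4 were Il21r and, named after their values were seen, Lifr at 0.33, the IL-4 receptor chain Il4ra at 0.21 and the common γ-chain Il2rg at 0.15. The 6 were Il6st, Il13ra1 at -0.13, Il3ra at -0.11, Il10rb at -0.10, Ifngr2 at -0.07 and Csf2ra at -0.06, of which all but Il6st were likewise named after their values were seen. The median was -0.08 without mouse 2 and -0.03 without mouse 4. The receptor with the smallest p was Il21r, whose ligand signals through Jak1 and Stat3. Its level was 1.13 ± 0.20 in control and 1.41 ± 0.20 in Y RNA siRNA cells (SD, n = 4 each), and its difference in mice 1 to 4 was 0.26, 0.33, 0.27 and 0.24. This mean of 0.28 (SE 0.13) had a limma adjusted p of 1.00, and 0.342 with mouse as a fixed block. Il6st, the signalling chain gp130 of IL-6-type receptors, differed by -0.11 (SE 0.06) and was lower in 4 of 4 mice.

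Inhibitors of the pathway showed no common direction. Of 20 negative regulators 19 were tested, 10 with a higher and 9 with a lower mean, a split that became 6 and 13 with quantile normalization or normexp correction. Their median was 0.00087, and 0 passed. In 4 of 4 mice 2 were higher, Socs3 and Ptpn11, and 3 were lower, Socs7, Cbl and Ptpn6. The split was 4 and 15 without mouse 3 and 13 and 6 without mouse 4. Socs7, a SOCS-family adaptor, had the smallest p of this list. Its level was 2.64 ± 0.05 in control and 2.40 ± 0.10 in Y RNA siRNA cells (SD, n = 4 each), lower in 4 of 4 mice by -0.24 (SE 0.07, unadjusted p = 0.0062, limma adjusted p = 1.00). The ubiquitin ligase Cbl was lower in 4 of 4 mice too, by -0.21 (SE 0.07). Socs3, the feedback inhibitor that Stat3 induces, went the other way and was higher in 4 of 4 mice, by 0.16, 0.39, 0.28 and 0.53. Its mean difference of 0.34 (SE 0.18) had a limma adjusted p of 1.00, and 0.417 with mouse as a fixed block.

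Partners and cofactors, such as Irf9 and the coactivators Crebbp and Ep300, were 8 higher and 8 lower of 16 tested, with a median of 0.0044 and 0 passing, and the split was 11 and 5 with median centring. The median was -0.01 without mouse 1 and 0.02 without mouse 2. In 4 of 4 mice Stam was higher, and Stam2 and Grb2 were lower. The smallest p values there belonged to adaptors that bind JAKs. Stam2 differed by -0.10 (SE 0.06), lower in 4 of 4 mice. Stam differed by 0.06 (SE 0.05), higher in 4 of 4 mice on its brightest probe, while its 2 probes disagreed in sign and averaged 0.02.

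Genes taken as targets of the STATs were listed by factor, with lists that overlap in part. Induced and repressed targets were not separated. For Stat2 and interferon, 26 genes were tested, 24 with a higher and 2 with a lower mean, and 0 passed the limma test. In 4 of 4 mice 8 were higher and 0 lower, and the 2 genes with a lower mean were Cxcl10 at -0.23 and Rsad2 at -0.06. The median was 0.13, where the median of all genes was 0.0045 and 10057 of 19246 genes were higher. That median was 0.01, 0.09, 0.28 and 0.03 in mice 1 to 4, and without mouse 3 the list's median was 0.05, with 20 higher and 6 lower. Bst2, the membrane protein tetherin that holds back budding viruses, had a level of 7.05 ± 0.18 and 7.21 ± 0.17 (SD, n = 4 each), a difference of 0.17 (SE 0.12), higher in 4 of 4 mice. Ifih1, the double-stranded RNA sensor MDA5, differed by 0.13 (SE 0.09), also higher in 4 of 4.

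Of 20 Stat3 target genes 13 had a higher and 7 a lower mean, which became 9 and 11 with quantile normalization and 16 and 4 with median centring. Their median was 0.01, or 0.0067 without mouse 2 and 0.04 without mouse 4, and 0 passed. In 4 of 4 mice Socs3 and Il4ra were higher, and Fos and Junb were lower. Fos, an immediate early gene of the AP-1 factor, had the largest difference of this list. Its level was 0.48 ± 0.17 in control and 0.0049 ± 0.32 in Y RNA siRNA cells (SD, n = 4 each), and the difference in mice 1 to 4 was -0.25, -0.41, -0.60 and -0.66. This mean of -0.48 (SE 0.16, unadjusted p = 0.0185) had a limma adjusted p of 1.00, and 0.379 with mouse as a fixed block. Socs3, given above, was the other leading gene, so that the pair with the smallest p went in opposite directions.

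Stat5 and Stat6 targets had 0 genes past the test as well. Of 12 Stat5 targets tested, 8 had a higher and 4 a lower mean, with a median of 0.05, and 0 were higher and 1, Spred1, lower in 4 of 4 mice. Their smallest p belonged to Ccnd2, a D-type cyclin, at 0.26 (SE 0.16) and higher in 3 of 4 mice. It was 0.13 with normexp correction, 0.16 with the values deposited by the authors, 0.13 without mouse 1 and 0.40 without mouse 4. Of 19 Stat6 targets tested, 5 had a higher and 14 a lower mean, with a median of -0.06, which was -0.06, -0.13, -0.05 and -0.09 in mice 1 to 4 and -0.02 without mouse 2. With median centring the split was 8 and 11. In 4 of 4 mice 3 were higher, Il4ra, Mrc1 and Chil3 at 0.25, and 5 were lower, Klf4, Pparg, Egr2 at -0.27, Clec7a and Flt1 at -0.37, named here after their values were seen. Chil3 had an SE of 1.98, with an SD of 3.25 between control arrays and 3.23 between Y RNA siRNA arrays. Those SDs include differences between mice, and within a mouse Chil3 differed by 0.10 to 0.34. The 2 Flt1 probes disagreed in sign and averaged -0.11. Klf4, a factor of alternative activation, was lower in 4 of 4 mice by -0.16 (SE 0.06, unadjusted p = 0.0243, limma adjusted p = 1.00). Pdcd1lg2, the ligand PD-L2, differed by -0.39 (SE 0.15) and was lower in 3 of 4 mice, but its 2 probes disagreed in sign and averaged -0.13. The probe itself gave -0.15 with normexp correction, -0.19 with the values deposited by the authors and -0.60 without mouse 2.

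**Figure D5:**
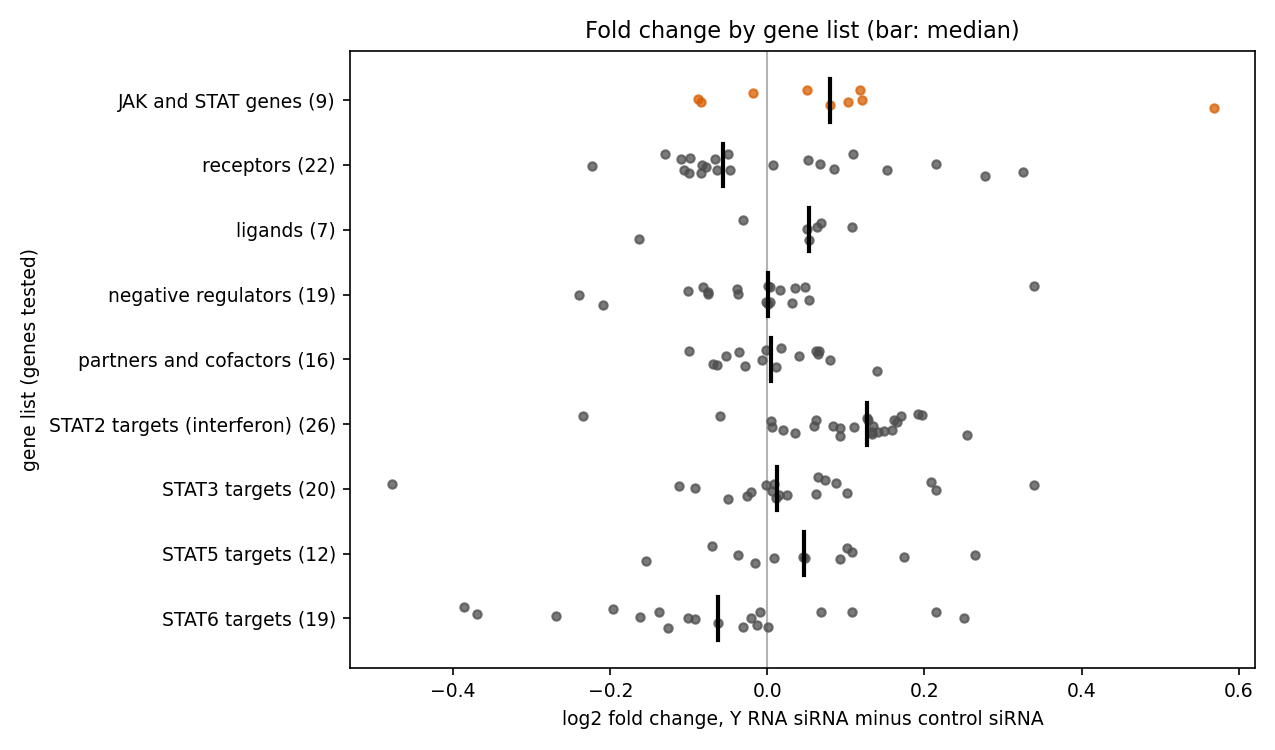
Difference between Y RNA siRNA and control siRNA for the 9 JAK and STAT genes (orange) and every tested gene of each pathway list (grey), in log2 units on the horizontal axis, with a black bar at each median. Medians of the pathway lists range from -0.06 for receptors and Stat6 targets to 0.13 for the Stat2 and interferon targets, of which 24 of 26 points lie above 0.

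For each member the gene with the most similar profile over the 8 arrays was found among 12461 genes. The 8 arrays share 4 mice, so these are not independent points, and a best match among so many genes is high by selection. Stat4 was most like Maea (Pearson r = 0.973), which was itself higher in 4 of 4 mice by 0.08. Stat6 was most like Btbd6 (r = 0.976), which was lower in 4 of 4 mice by -0.23. Jak2 was most like Abcb1b (r = 0.978), at a difference of 0.13. The nearest profiles of the others were Appbp2 for Stat2 (r = 0.990), Tnrc6c for Stat3 (0.993), Tmc4 for Stat5a (0.980), Fech for Stat5b (0.987), Dennd5a for Jak1 (0.985) and Lrrc31 for Tyk2 (0.982).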

How the data were processed

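Each of the 8 arrays was deposited as scanner output of Agilent Feature Extraction 10.7.3.1, per the file headers, whose processed signal is an intensity after the software's background and spatial steps. The deposited value table holds log2 values that tracked the log2 of the raw median intensity (lowest r = 0.9998), and its normalization is not stated. Of 62976 spots, 3671 controls were left out, outlier spots were set to missing, and spots of a probe were averaged to 55681 probes. Values were log2 processed signal minus each array's 75th percentile, and 26818 probes well above background on at least 4 arrays were tested. Tests used limma 3.58.1 (R 4.3.3), two-sided, with Benjamini-Hochberg adjustment and a threshold of 0.05. Arrays limit precision by their number.

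Replicate numbers were taken to stand for mice, from the design text of the series. The sample labels give a replicate number and no mouse number. Deviations of same-numbered arrays from their group means had r of 0.587, 0.142, 0.534 and 0.248 for mice 1 to 4, and the numbers were taken as pairs. For mouse 2, only 1 of its arrays correlated best with its own partner. Same-numbered arrays also lay side by side on the slide, so this check cannot tell mouse from position. The fit without a block was the main one, with fixed and random mouse blocks as alternatives. All 8 arrays were on 1 slide.

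Other alternatives were normexp correction with an offset of 50, quantile normalization, median centring, no filter, a filter on all 8 arrays, 1 probe per gene, the deposited table, and leaving out each array or mouse. Array weights were tried too, and blocks on 3 mice were added after seeing the data. The members and gene lists were chosen with earlier results of these data known. All members were named, and in each list the 2 genes with the smallest p. A gene with several probes was represented by the brightest. The sequence of 1 Stat3 probe is not reported here.

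Marker lists were read as summed levels over the arrays. Beside those in the report, neutrophil markers were 5 tested of 8, with 3 higher and 2 lower. Fibroblast markers were 5 of 7, with 4 higher and 1 lower. Erythroid and megakaryocyte markers were 1 of 7, which was higher. Mast cell and basophil markers were 2 of 6, both higher. In the limma fit 0 of them passed.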

Additional observations from a re-analysis of the deposited data

How the results depend on the processing

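The siRNA comparison called 0 probes over the array in 25 of 26 alternatives, the fit with a fixed replicate block (mouse) included, and 3 with a random replicate block. Member probes called were 0 in all 26. Leaving out 1 array or 1 mouse gave 0 calls each time. Of 664 comparisons of a log2 difference with an alternative, for 13 member probes and 15 list genes, 657 kept direction and side of the threshold and 7 reversed. For Jak1 the difference was 0.0114 with median centring, 0.0032 and 0.000441 without the Y RNA siRNA array of mouse 2 or 3, 0.0115 without the control array of mouse 4, and 0.0164 without mouse 4, with or without the replicate block. With 1 array left out it was -0.0627 to 0.0115, and with 1 mouse out -0.0456 to 0.0164. For Stat6 A_52_P132761 it was -0.0252 without the Y RNA siRNA array of mouse 1, in a range of -0.0252 to 0.117.

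The comparison of mice moved more. It called 804 probes, but 4343 with normexp correction, 2036 with the deposited table and 124 without the filter on dim probes. Without mouse 1 it called 2, without mouse 3 124 and without mouse 4 294, in a range of 2 to 761 over the mice. Member probes called were 1, but 3 with normexp correction (also Stat2, adjusted p = 0.0206, and the upstream Stat3 probe, 0.0298), 2 when all 8 arrays had to be above background (also Stat2, 0.0490), 0 without the filter, and 0 to 1 with a mouse left out. The cause of these shifts was not tested. Leaving out a mouse also leaves fewer samples. The number of arrays limits what can be called, and the upstream Stat3 and Stat6 probes are dim.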
